A study of Mus musculus with 10 samples.

Results

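The AP-1 transcription factor family was followed through mouse lung in a house dust mite model of allergic asthma. Its 10 members were taken by symbol: the Jun proteins Jun, Junb and Jund, the Fos proteins Fos, Fosb, Fosl1 and Fosl2, and their partners Atf3, Batf and Batf3. They are 10 of the 53342 genes in the deposited count table. All 10 passed the filter on low counts that left 26235 genes for testing.

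AP-1 is a dimer of basic leucine zipper (bZIP) proteins that binds a short DNA element, most often a Jun protein paired with a Fos, Atf or Batf protein. Fos, Fosb, Jun, Junb and Atf3 are immediate early genes, transcribed within minutes of a stimulus through kinases such as ERK1/2, JNK and p38, and Fosl1 and Fosl2 follow more slowly. Batf and Batf3 lack a transactivation domain and act with Jun proteins and IRF factors in lymphocytes and dendritic cells. In the lung, AP-1 genes respond to injury, stretch and inflammation.

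Whole lung RNA was measured in 10 libraries, all labelled as 12-week-old female BALB/c mice. The PBS group (n = 4) received saline, and the HDM group (n = 3) received house dust mite allergen intranasally on 5 days a week for 3 weeks, with DMSO named in its labels and not in those of PBS. The SF-3-030+HDM group (n = 3) received the same allergen course, with SF-3-030 given intranasally at 10 mg/kg 30 min before each challenge. The series title describes the compound as acting selectively on functions of ERK1/2. No group received the compound alone. Separate animals are not stated for the replicates, so each p measures the spread between these samples, which may be technical. Deposited totals ran from 38667118 to 59083942 expected counts (estimated reads per gene), and CPM (a gene's count per 1000000 counts of its library) use these totals. In whole tissue, fewer cells of a type and less RNA per cell cannot be told apart.

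The lung label held: summed lung epithelial markers stood at 46486 CPM or more in every library. Several libraries stood apart in ways that the groups do not describe. Transcripts of the Y-linked gene Ddx3y stood at 20.4 to 31.5 CPM in PBS 2, HDM 2 and HDM 3, against 0.575 CPM or less in the other 7, although every animal is labelled female. H2-Ea-ps, an MHC pseudogene that varies between strains, ranged from 331 to 432 CPM across SF-3-030+HDM and was 0.953 CPM or less elsewhere. Tpsab1 and Gbp2b were likewise higher in SF-3-030+HDM. Trim12a divided the libraries the other way, at 0.199 to 0.363 CPM in SF-3-030+HDM and 18.7 to 30.6 CPM elsewhere. Which of these libraries depart from the BALB/c label was not tested. A difference in mouse strain or supply therefore cannot be told apart from the compound in either comparison with SF-3-030+HDM. Olfactory and vomeronasal receptor genes, which lung hardly uses, summed to 469, 308 and 230 CPM in PBS 1, PBS 4 and HDM 3, and to 16.0 to 115 CPM elsewhere.

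The window before the start site of 5 members carried TGACG, the core of the cyclic AMP response element through which Atf and CREB proteins bind. These promoters are shown because they carry TGACG. Among them, Fos, Fosb, Junb and Atf3 set the library PBS 2 apart from its group. Fosb, Atf3 and Batf were called in SF-3-030+HDM against PBS. Batf3 was called there too, and its window had no TGACG, nor had those of Fosl2, Jun and Jund. Whether TGACG goes with the calls or with PBS 2 was not tested. The sequences are RefSeq's, build GRCm38.p6, which is the C57BL/6J reference and not BALB/c. They start 250 bases before the RefSeq start site. Capitals mark TGACG or, on the other strand, its complement CGTCA.
Fos, chr12:85473640-85473889, plus strand: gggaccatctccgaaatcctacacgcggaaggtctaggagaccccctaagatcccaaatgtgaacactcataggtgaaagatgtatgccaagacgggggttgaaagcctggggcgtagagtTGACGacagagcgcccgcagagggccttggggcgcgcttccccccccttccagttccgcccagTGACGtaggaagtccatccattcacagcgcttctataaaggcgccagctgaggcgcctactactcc
Fosb, chr7:19310046-19310295, minus strand: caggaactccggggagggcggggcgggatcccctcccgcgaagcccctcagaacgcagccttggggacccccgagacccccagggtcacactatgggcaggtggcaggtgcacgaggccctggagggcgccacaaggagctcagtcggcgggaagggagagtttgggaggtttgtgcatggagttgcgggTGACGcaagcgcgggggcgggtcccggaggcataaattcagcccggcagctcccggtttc
Junb, chr8:84978749-84978998, minus strand: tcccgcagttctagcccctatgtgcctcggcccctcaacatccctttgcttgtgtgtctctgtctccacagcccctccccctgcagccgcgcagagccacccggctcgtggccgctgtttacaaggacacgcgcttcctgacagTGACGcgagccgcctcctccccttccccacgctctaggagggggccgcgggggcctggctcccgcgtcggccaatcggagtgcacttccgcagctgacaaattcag
Atf3, chr1:191183334-191183583, minus strand: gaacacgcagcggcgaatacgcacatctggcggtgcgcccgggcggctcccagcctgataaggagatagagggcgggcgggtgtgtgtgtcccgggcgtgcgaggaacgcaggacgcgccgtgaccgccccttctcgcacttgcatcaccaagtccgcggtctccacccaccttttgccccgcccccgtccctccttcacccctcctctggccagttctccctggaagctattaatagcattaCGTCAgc
Batf, chr12:85686470-85686668, plus strand: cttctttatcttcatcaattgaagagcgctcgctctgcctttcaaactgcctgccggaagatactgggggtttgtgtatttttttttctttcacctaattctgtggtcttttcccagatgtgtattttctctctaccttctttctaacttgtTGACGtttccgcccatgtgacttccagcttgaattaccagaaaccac
The Batf window ends at position -52, since annotated exon begins there. Promoters were matched for 9 of 10 members, all but Fosl1. TGACG on either strand was present in 5 of those 9, against 17.77% of 32851 promoters of the same length. Fos carried it in 2 places, at -129 and -66. The full 8-base element TGACGTCA, which contains TGACG, was in 0 of 9 windows and in 1.546% of all promoters. The AP-1 element TGANTCA was in 0 of 9, against 6.749%, and the CArG box of serum response factor in 0 of 9, against 1.467%. A match describes letters and not binding. The search covered only these windows and these letter patterns, so elements farther away or spelled otherwise could not be found. The Atf3 window lies inside the annotated gene, whose start on the minus strand is at chr1:191218039. Its TGACG therefore belongs to an internal RefSeq start. The Jund window ends at chr8:70697738, ahead of the annotated gene start at 70698949. Absence from a window is therefore not absence from the gene's control regions.

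The members called higher in any comparison were Atf3, Batf and Batf3, and the member called lower was Fosb. HDM against PBS is here named the allergen comparison, SF-3-030+HDM against HDM the compound comparison and SF-3-030+HDM against PBS the combined comparison. The allergen comparison called 1 of 10 members, Batf3, which was higher. Over all tested genes the share called was 2.61%, or 2.32% for higher genes alone. The compound comparison called 0 of 10, against 9.49% of all genes (3.43% higher and 6.06% lower). The combined comparison called 4 of 10, against 29.9% of all genes: Atf3, Batf and Batf3 were higher (11.8% of all genes) and Fosb was lower (18.1%). A call is a two-sided adjusted p under 0.05 from edgeR's quasi-likelihood test with Benjamini-Hochberg adjustment over the 26235 genes. Both comparisons with PBS use the same 4 PBS libraries, and the median log2 fold change over all genes was -0.09 in the allergen comparison, -0.03 in the compound comparison and -0.11 in the combined comparison.

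**Figure D1:**
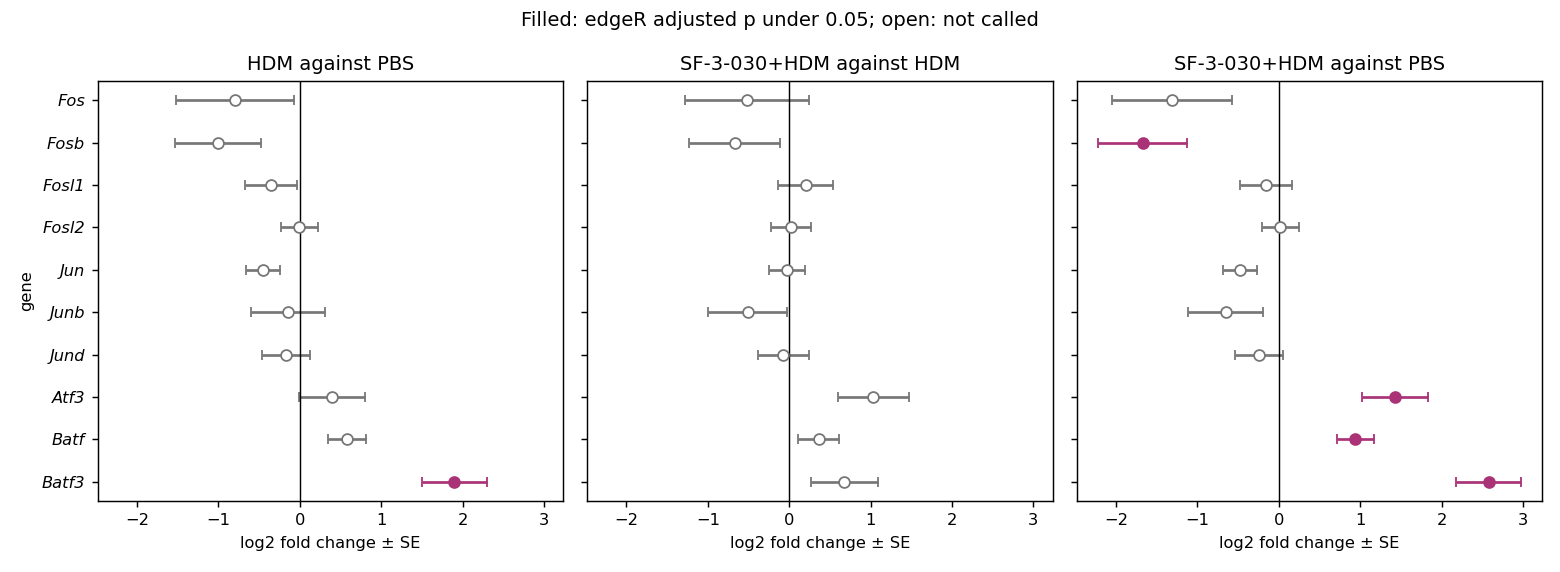
Log2 fold change of each AP-1 member (points) with its standard error (bars) in the 3 comparisons, from edgeR's quasi-likelihood model of all 10 libraries; filled points passed an adjusted p of 0.05. Batf3 stands at 1.90 in the allergen comparison and at 2.58 in the combined comparison, while Fosl2 stays near 0 in all 3.

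The levels of the members spanned a wide range. Per kilobase of merged exons, in the PBS group, Jund stood highest at 348 ± 169 CPM per kb (SD, n = 4), followed by Jun at 112 ± 23.1, Junb at 85.3 ± 60.5 and Fos at 45.0 ± 55.1 CPM per kb. Fosl2 at 6.90 ± 1.45, Atf3 at 6.16 ± 4.44 and Batf at 5.99 ± 2.03 CPM per kb formed a lower tier. Batf3 at 1.41 ± 0.71, Fosb at 1.37 ± 1.28 and Fosl1 at 0.99 ± 0.27 CPM per kb were lowest. The PBS ranges of neighbours in this order overlapped except between Jund and Jun, between Fos and Fosl2, and between Batf and Batf3. The ranges alone therefore do not resolve the order of the neighbours that overlapped. Compared within libraries, Junb stood above Fos in every PBS library. The other overlapping neighbours changed order between PBS libraries.

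The 3 Jun genes made up most of the summed member level per kb in every group, at 89.4 ± 7.09% (SD) for PBS (n = 4), 88.7 ± 1.68% for HDM (n = 3) and 86.9 ± 0.446% for SF-3-030+HDM (n = 3). The 4 Fos genes held 8.40 ± 6.75%, 6.95 ± 1.34% and 5.58 ± 0.833% in that order. Atf3, Batf and Batf3 together held 1.67% to 2.68% of it in PBS libraries, 3.74% to 5.23% in HDM libraries and 6.83% to 8.19% in SF-3-030+HDM libraries. These 3 ranges did not overlap. Of all tested genes taken singly, 11.2% did not overlap in the allergen comparison, 37.6% in the compound comparison and 38.8% in the combined comparison. The 3 genes summed here are also the members called higher. Whether other sets of genes separate in the same way was not tested. The shares describe RNA and not protein.

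**Figure D2:**
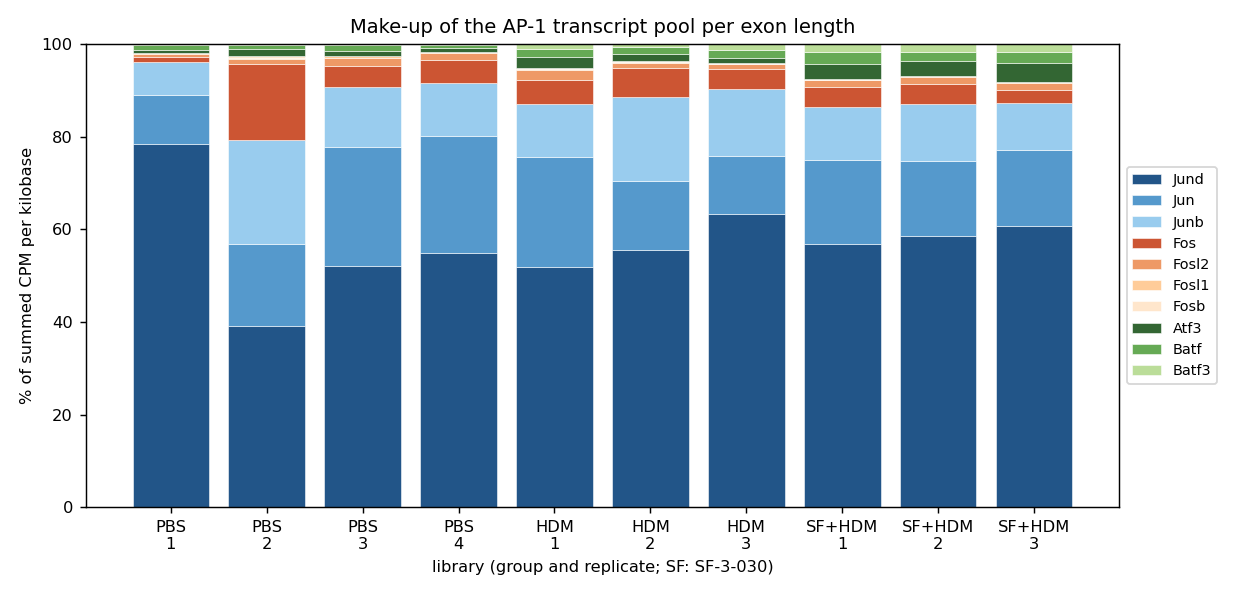
Share of the summed CPM per kb of the 10 members held by the Jun group, the Fos group and the Atf3 and Batf group in each library (one stacked bar per library, starting at 0). The Jun group fills 79.4% to 96.1% of the PBS bars, and the Atf3 and Batf share is larger in every HDM bar than in any PBS bar and larger again in every SF-3-030+HDM bar. Of all tested genes taken singly, 11.2% did not overlap between HDM and PBS and 37.6% between SF-3-030+HDM and HDM.

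Jun (ENSMUSG00000052684, GRCm38 chr4:95049034-95052222, minus strand) is the founding transactivating subunit of AP-1. It stood at 258, 435, 371 and 370.4 CPM in PBS 1 to 4, at 277, 238 and 253 CPM in HDM 1 to 3, and at 254, 283 and 232 CPM in SF-3-030+HDM 1 to 3. PBS 2, 3 and 4 lay above every treated library, while PBS 1 lay among them. The log2 fold change was -0.45 ± 0.21 (SE) in the allergen comparison, with an edgeR adjusted p of 0.470, and -0.47 ± 0.21 in the combined comparison, with an edgeR adjusted p of 0.105. Without PBS 1 both passed, at -0.60 with an edgeR adjusted p of 0.0289 and at -0.65 with an edgeR adjusted p of 0.00464. Jun was also called lower in the combined comparison by DESeq2 (adjusted p = 0.0325), with upper-quartile scaling (log2 difference -0.64, edgeR adjusted p = 0.0130), with a filter of 1 CPM in 3 libraries (edgeR adjusted p = 0.0396) and without the 3 libraries richest in olfactory and vomeronasal receptor reads (-0.69, edgeR adjusted p = 0.0104). In the compound comparison the difference was -0.02 ± 0.22 (edgeR adjusted p = 0.964).

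Junb (ENSMUSG00000052837, chr8:84974484-84978718, minus strand) dimerises with Fos proteins and Batf and has a role in type 2 helper T cells. Its levels were 125 CPM in PBS 1, 405 in PBS 2, 134 in PBS 3 and 120.1 in PBS 4. They were 97.3, 209 and 211 CPM in HDM 1 to 3 and 116, 158 and 102 CPM in SF-3-030+HDM 1 to 3. PBS 2 stood far above the other 9 libraries, among which the groups overlapped. The log2 differences were -0.14 ± 0.45 in the allergen comparison, -0.51 ± 0.48 in the compound comparison and -0.65 ± 0.46 in the combined comparison, with edgeR adjusted p of 0.988, 0.526 and 0.305. Without PBS 2 the first turned to 0.53 and the last to 0.02, and neither was called.

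Jund (ENSMUSG00000071076, chr8:70698949-70700616, plus strand) is the Jun gene that resting cells express steadily. It stood at 996, 508, 392 and 422 CPM in PBS 1 to 4, at 319, 466 and 666 CPM in HDM 1 to 3 and at 418, 541 and 445.5 CPM in SF-3-030+HDM 1 to 3. PBS 1 was highest, and the groups overlapped in every comparison. Log2 differences lay between -0.24 and -0.07, with edgeR adjusted p of 0.571 to 0.983. Jund shares 877 exon bases with the antisense gene Gm11175, Jun 232 with Junos and Junb 173 with Prdx2. The strand setting of the counting is not given in the sources used here, so reads over these bases cannot be told apart.

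**Figure D3:**
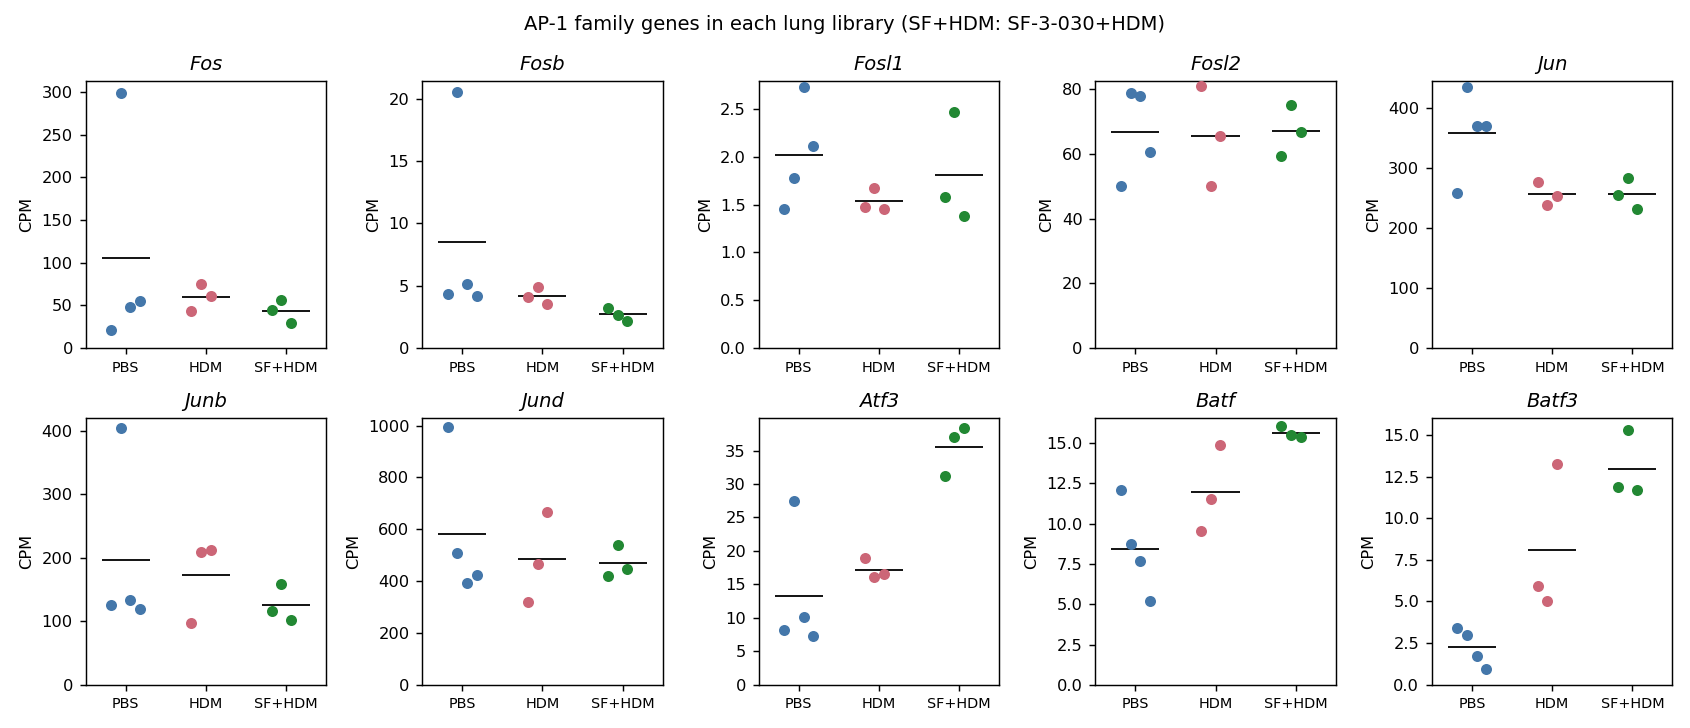
Level of each AP-1 member in CPM (linear axis from 0) in every library, with a point per library and a bar at each group's mean. PBS 2 is the highest point for Fos (299 CPM), Fosb (20.5 CPM), Jun (435 CPM) and Junb (405 CPM), and the SF-3-030+HDM points of Atf3 lie above those of the other groups.

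Fos (ENSMUSG00000021250, chr12:85473890-85477273, plus strand), the classic immediate early subunit, had the widest spread in PBS. It stood at 21, 299, 48.1 and 55.5 CPM in PBS 1 to 4, at 44.0, 75.4 and 61.3 CPM in HDM 1 to 3 and at 45.2, 56.8 and 29.2 CPM in SF-3-030+HDM 1 to 3. PBS held both the lowest and the highest of the 10 values, a 14.2-fold range against 1.71-fold in HDM. The log2 differences were -0.79 ± 0.72 in the allergen comparison, -0.52 ± 0.76 in the compound comparison and -1.31 ± 0.73 in the combined comparison, with edgeR adjusted p of 0.921, 0.695 and 0.194. Without PBS 2 the differences from PBS were 0.59 for HDM and 0.07 for SF-3-030+HDM, and neither was called. Without the 3 libraries richest in olfactory and vomeronasal receptor reads (PBS 1, PBS 4 and HDM 3), which keeps PBS 2, Fos was called lower in the combined comparison, at -2.04 (edgeR adjusted p = 0.0462).

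Fosb (ENSMUSG00000003545, chr7:19302696-19310051, minus strand), a close relative induced with Fos, was lower in SF-3-030+HDM than in PBS. It stood at 4.37, 20.5, 5.13 and 4.16 CPM in PBS 1 to 4, at 4.07, 4.90 and 3.55 CPM in HDM 1 to 3 and at 3.22, 2.68 and 2.20 CPM in SF-3-030+HDM 1 to 3. Every SF-3-030+HDM library lay under every library of both other groups, and the PBS and HDM ranges overlapped. Against PBS, Fosb fell by 1.67 ± 0.55 on the log2 scale, or 3.19-fold (edgeR adjusted p = 0.0388). Without PBS 2 the log2 difference was -0.72 (edgeR adjusted p = 0.0486). The call was lost without HDM 1 (0.0518), HDM 2 (0.0535), SF-3-030+HDM 1 (0.0931), SF-3-030+HDM 2 (0.111) or SF-3-030+HDM 3 (0.119), in edgeR adjusted p, and without the 3 libraries with Y-linked transcripts (0.0573, at a log2 difference of -0.71). It was also lost in limma-voom (-1.30, adjusted p = 0.111) and in an edgeR fit of the 2 groups alone (-1.71, adjusted p = 0.0554). Against HDM the log2 difference was -0.67 ± 0.56 (edgeR adjusted p = 0.466), and the allergen comparison gave -1.002 ± 0.53 (edgeR adjusted p = 0.589).

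Fosl1 and Fosl2, the Fra-1 and Fra-2 proteins that lack the strong transactivation domain of Fos, did not pass in any comparison. Fosl1 (ENSMUSG00000024912, chr19:5447547-5455946, plus strand) stood between 1.38 and 2.73 CPM in all 10 libraries, and it shares 1163 exon bases with Ccdc85b on the other strand. Its log2 differences were -0.35 ± 0.32 in the allergen comparison, 0.20 ± 0.34 in the compound comparison and -0.15 ± 0.32 in the combined comparison, with edgeR adjusted p of 0.919, 0.741 and 0.741. Fosl2 (ENSMUSG00000029135, chr5:32135801-32157842, plus strand) stood between 50.1 and 81.0 CPM, and its 3 log2 differences were -0.01 ± 0.23, 0.03 ± 0.24 and 0.02 ± 0.23, with edgeR adjusted p of 0.999, 0.960 and 0.957 in the same order.

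Atf3 (ENSMUSG00000026628, chr1:191170296-191218039, minus strand), a stress-induced factor that often represses inflammatory genes, stood higher in each SF-3-030+HDM library than in any other. It stood at 8.12, 27.5, 10.2 and 7.30 CPM in PBS 1 to 4, at 18.9, 16.1 and 16.6 CPM in HDM 1 to 3 and at 31.2, 37.0 and 38.3 CPM in SF-3-030+HDM 1 to 3. The 3 HDM libraries lay above PBS 1, 3 and 4 and under PBS 2. In SF-3-030+HDM it was 2.69-fold higher than in PBS, a rise of 1.43 ± 0.41 on the log2 scale (edgeR adjusted p = 0.0225). That call was lost without PBS 4 (0.0550), SF-3-030+HDM 2 (0.0636) or SF-3-030+HDM 3 (0.0777), in edgeR adjusted p, and without the 3 libraries richest in olfactory receptor reads (0.107). Without PBS 2 the difference grew to 2.10 on the log2 scale (edgeR adjusted p = 9.65e-05).

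Against HDM, Atf3 in SF-3-030+HDM stood 2.05-fold higher, at a log2 difference of 1.04 ± 0.44, without passing the threshold (edgeR adjusted p = 0.143). Before adjustment its edgeR p was 0.0367, in a comparison where 9.49% of all genes were called after adjustment. DESeq2 and limma-voom called 0 members there as well. Atf3 did pass without PBS 2 (edgeR adjusted p = 0.0135) and in a fit of those 2 groups alone (edgeR adjusted p = 0.00519). Groups did not overlap for 3 members in this comparison, Fosb, Atf3 and Batf, against 37.6% of all genes. In the allergen comparison the log2 difference of Atf3 was 0.39 ± 0.41 (edgeR adjusted p = 0.955), and without PBS 2 it was 1.07 (edgeR adjusted p = 0.0178).

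Batf (ENSMUSG00000034266, chr12:85686669-85709087, plus strand) directs Th2, Tfh and Th17 cells and class switching in B cells. It stood at 12.1, 8.73, 7.67 and 5.22 CPM in PBS 1 to 4, at 9.54, 11.5 and 14.9 CPM in HDM 1 to 3 and at 16.0, 15.5 and 15.4 CPM in SF-3-030+HDM 1 to 3. The HDM libraries overlapped with PBS, and the SF-3-030+HDM libraries lay above all others within a range of less than 1 CPM. In SF-3-030+HDM it was 1.92-fold higher than in PBS, a rise of 0.94 ± 0.23 on the log2 scale (edgeR adjusted p = 0.0124), which passed in all 10 fits without 1 library. Upper-quartile scaling ended the call (edgeR adjusted p = 0.0677). The log2 difference was 0.58 ± 0.23 in the allergen comparison and 0.36 ± 0.25 in the compound comparison, with edgeR adjusted p of 0.332 and 0.366.

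Batf3 (ENSMUSG00000026630, chr1:191097847-191108945, plus strand) is needed for conventional type 1 dendritic cells (cDC1) and lies near Atf3 on chromosome 1. It was the only member called in the allergen comparison and had the largest rise of the family in the combined comparison. It stood at 3.38, 2.96, 1.73 and 0.921 CPM in PBS 1 to 4, at 5.94, 5.04 and 13.2 CPM in HDM 1 to 3 and at 11.9, 15.3 and 11.7 CPM in SF-3-030+HDM 1 to 3. Every library with allergen lay above every PBS library, and HDM 3 lay within the SF-3-030+HDM range. It was the 1 member whose groups did not overlap in the allergen comparison, against 11.2% of all genes (5.28% higher).

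In HDM, Batf3 was 3.73-fold higher than in PBS, a rise of 1.90 ± 0.40 on the log2 scale (edgeR adjusted p = 0.0261). This call was lost without PBS 3 (0.0842), PBS 4 (0.0503) or HDM 3 (0.115), in edgeR adjusted p, without the 3 libraries with Y-linked transcripts (0.293) and without the 3 richest in olfactory receptor reads (0.0873). Upper-quartile scaling (0.0564) and a fit of the 2 groups alone (0.0670) ended it too. In SF-3-030+HDM, Batf3 was 5.97-fold higher than in PBS, a rise of 2.58 ± 0.40 on the log2 scale (edgeR adjusted p = 0.00101). That call held in all 10 fits without 1 library and in the 11 other alternatives. Groups did not overlap for 4 members in the combined comparison, Fosb, Atf3, Batf and Batf3, against 38.8% of all genes. Between SF-3-030+HDM and HDM the log2 difference of Batf3 was 0.68 ± 0.42 (edgeR adjusted p = 0.309), and without the 3 receptor-rich libraries it was called, at 1.18 (edgeR adjusted p = 0.0201).

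Summed T cell, B and plasma cell and macrophage markers were higher in every HDM and SF-3-030+HDM library than in any PBS library. These sums overlapped between HDM and SF-3-030+HDM, whereas the Batf ranges of those groups did not. The 8 T cell markers summed to 89.4 to 142 CPM across PBS, 189 to 242 CPM across HDM and 212 to 239 CPM across SF-3-030+HDM, with none at 0 in all libraries of a group. B and plasma cell markers summed to 468 to 1094, 1987 to 2975 and 2121 to 2841 CPM, and macrophage markers to 336 to 532, 985 to 1201 and 807 to 1485 CPM. Within these lists, Sdc1 and Marco were called lower in the combined comparison. Cardiac markers ran the other way, at 291 to 745, 250 to 339 and 80.8 to 176 CPM. Endothelial markers were also lower with allergen, at 4392 to 4778, 3158 to 3394 and 3453 to 3773 CPM. So were lung epithelial markers, at 74936 to 82468, 49858 to 68878 and 46486 to 49452 CPM. Neutrophil markers stood at 132 to 377, 74.1 to 139 and 249 to 299 CPM. The part of cell composition in the levels of Atf3, Batf and Batf3 was not tested.

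**Figure D4:**
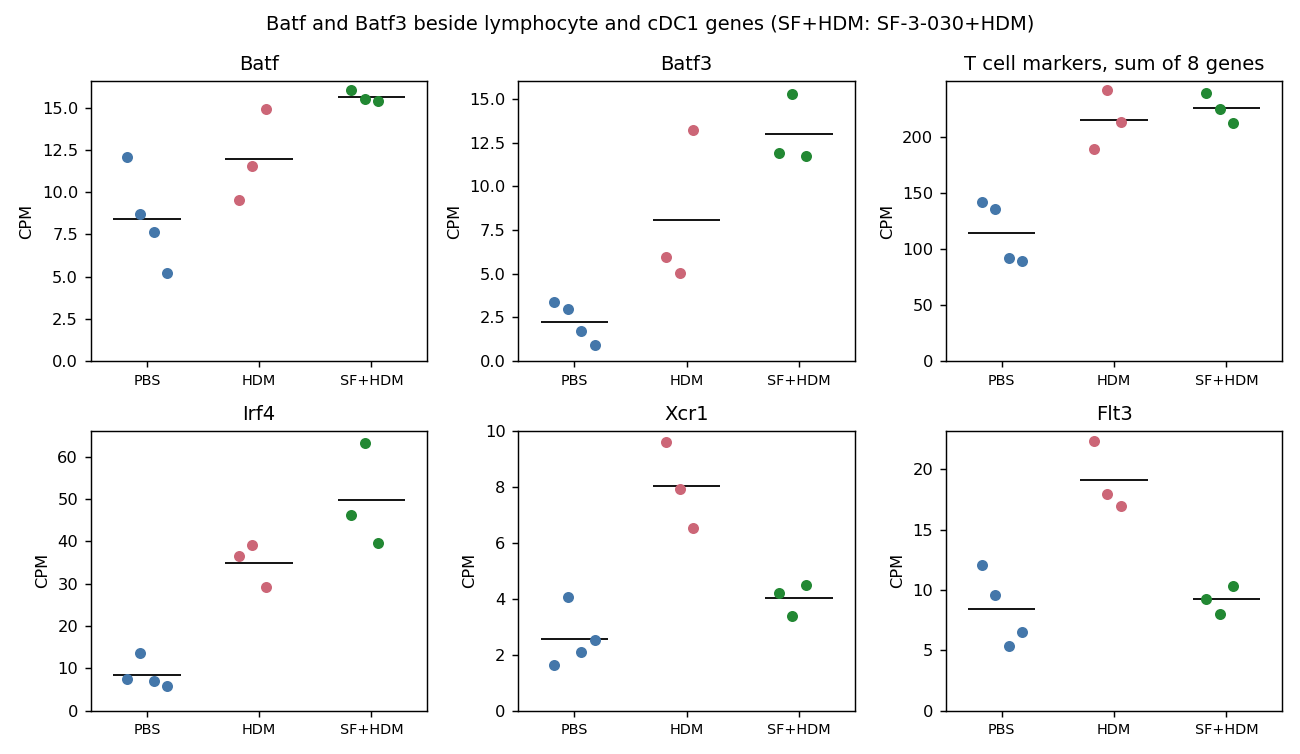
Batf and Batf3 in CPM in each library beside genes of the lymphocyte programme that Batf serves and of cDC1 cells, with points coloured by group. PBS points of Irf4 lie at 5.91 to 13.6 CPM, HDM points at 29.3 to 39.2 CPM and SF-3-030+HDM points at 39.7 to 63.3 CPM, whereas Xcr1 is highest in HDM, at 6.53 to 9.62 CPM.

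Genes of the lymphocyte programme in which Batf acts were called in 1 direction. Of 15 tested, 8 were called higher and 0 lower in the allergen comparison, with a median log2 fold change of 1.44. In the combined comparison 13 were higher and 0 lower, with a median of 2.19. Against HDM 3 were higher and 0 lower, with a median of 0.50. The shares of all genes called higher were 2.32%, 11.8% and 3.43%, in the same order. Irf4, the IRF partner of Batf, stood at 7.57, 13.6, 7.15 and 5.91 CPM in PBS 1 to 4, at 36.5, 39.2 and 29.3 CPM in HDM 1 to 3 and at 46.1, 63.3 and 39.7 CPM in SF-3-030+HDM 1 to 3. It rose by 2.08 ± 0.29 on the log2 scale in the allergen comparison (edgeR adjusted p = 0.00315). The checkpoint receptor gene Pdcd1 and the receptor gene Tigit rose by 2.78 and 2.91 on the log2 scale in the same comparison (edgeR adjusted p of 0.00249 and 0.00457). Il1rl1, the IL-33 receptor of type 2 cells, stood at 4.84 to 10.5 CPM in HDM and 25.98 to 36.8 CPM in SF-3-030+HDM, a rise of 1.99 ± 0.25 against HDM (edgeR adjusted p = 0.000657). Il4 and Gata3 were also called higher against HDM, at edgeR adjusted p of 0.0476 and 0.0347. The Il4 call was lost without PBS 4 or any HDM or SF-3-030+HDM library (edgeR adjusted p of 0.0648 to 0.149), and the Gata3 call without PBS 4, any HDM library, SF-3-030+HDM 1 or SF-3-030+HDM 2 (0.0513 to 0.127). RLE scaling ended both, at 0.0524 and 0.0537, as did upper-quartile scaling (0.0746 and 0.153) and the filter of 1 CPM in 3 libraries (0.0657 and 0.0890).

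Genes of cDC1 cells, which depend on Batf3, had their calls mostly in the allergen comparison. In the allergen comparison 4 of 10 were called higher (Xcr1, Irf8, Wdfy4 and Flt3), with a list median of 0.78 on the log2 scale. In the compound comparison 1 was called lower (Flt3) and 0 higher, and the median was -0.06. In the combined comparison 2 were higher (Irf8 and Id2), with a median of 0.42. Over all genes 2.61%, 9.49% and 29.9% were called in these 3 comparisons. The chemokine receptor gene Xcr1, a defining cDC1 marker, stood at 1.62, 4.09, 2.10 and 2.52 CPM in PBS 1 to 4, at 9.62, 7.92 and 6.53 CPM in HDM 1 to 3 and at 4.21, 3.41 and 4.49 CPM in SF-3-030+HDM 1 to 3. It rose by 1.66 ± 0.32 in the allergen comparison (edgeR adjusted p = 0.0160), a call lost without PBS 3 (0.0579), HDM 1 (0.0606) or HDM 2 (0.0806). The difference in the compound comparison was -1.01 ± 0.34 (edgeR adjusted p = 0.0784). Clec9a, a lectin receptor gene that also marks cDC1 cells, stood at 9.61, 16.9, 16.3 and 17.6 CPM in PBS 1 to 4, at 27.4, 16.5 and 11.2 CPM in HDM 1 to 3 and at 34.6, 32.0 and 18.03 CPM in SF-3-030+HDM 1 to 3. Its log2 difference in the compound comparison was 0.58 ± 0.35, opposite in sign to that of Xcr1 (edgeR adjusted p = 0.299), and 0.89 ± 0.32 in the combined comparison (edgeR adjusted p = 0.0568). In the allergen comparison the Flt3 call was lost without PBS 4, HDM 1 or HDM 2 (edgeR adjusted p of 0.0513 to 0.0632), the Wdfy4 call without HDM 1 or HDM 2 (0.0509 and 0.110) and the Irf8 call without PBS 3, PBS 4, any HDM library, SF-3-030+HDM 1 or SF-3-030+HDM 2 (0.0504 to 0.168). The Id2 call was lost without SF-3-030+HDM 2 or 3 (0.0587 and 0.0578). Flt3, a growth factor receptor of dendritic cells, stood at 17.0 to 22.3 CPM in HDM and 8.04 to 10.3 CPM in SF-3-030+HDM. It fell by 1.06 ± 0.25 on the log2 scale (edgeR adjusted p = 0.0294), a call lost without HDM 1 (0.0606), HDM 2 (0.0823) or any SF-3-030+HDM library (0.0523 to 0.119). Batf3 itself stood at 11.7 to 15.3 CPM in SF-3-030+HDM and 5.04 to 13.2 CPM in HDM.

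Among 24 related bZIP factors, 1 was called higher and 0 lower in the allergen comparison (list median -0.09 on the log2 scale). The compound comparison called 1 higher and 0 lower (0.04), and the combined comparison 5 higher and 5 lower (0.09). Over all genes 2.61%, 9.49% and 29.9% were called, in the same order. Bach2, a repressor that competes for AP-1 elements in lymphocytes, rose by 0.79 ± 0.16 in the compound comparison (edgeR adjusted p = 0.0152), from 14.1 to 17.2 CPM to 23.4 to 31.1 CPM. Leaving out HDM 2, HDM 3, SF-3-030+HDM 1 or SF-3-030+HDM 2 ended that call (edgeR adjusted p of 0.0552 to 0.0841). Atf5, a stress factor, fell by 1.02 ± 0.20 in the combined comparison (edgeR adjusted p = 0.00376).

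Of the 22 kinases and factors upstream of AP-1, 0 were called in the allergen comparison, against 2.61% of all genes. The compound comparison called 1 higher and 0 lower, against 9.49% of all genes. The combined comparison called 2 higher and 1 lower, against 29.9% of all genes. Their medians were -0.06, 0.11 and 0.08 on the log2 scale. Mef2c, a transcription factor controlled by MAP kinases, ranged over 19.4 to 30.9 CPM in PBS libraries, 29.0 to 35.6 CPM in HDM libraries and 56.9 to 82.1 CPM in SF-3-030+HDM libraries. It rose by 1.62 ± 0.21 in the combined comparison (edgeR adjusted p = 0.000346). It was also the 1 called in the compound comparison, at 1.03 ± 0.23 (edgeR adjusted p = 0.0218), a call lost without HDM 2, HDM 3 or any SF-3-030+HDM library (0.0513 to 0.0960). The other two called in the combined comparison were the ETS factor gene Elk4, higher, and the kinase gene Rps6ka2, lower. Both calls were lost without SF-3-030+HDM 1 or 2, at edgeR adjusted p of 0.0614 and 0.0645 for Elk4 and 0.112 and 0.0958 for Rps6ka2. These are RNA levels, and phosphorylation was not measured.

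Many other immediate early genes were highest in PBS 2. Of 22, 0 were called in the allergen comparison (median -0.41 on the log2 scale). The compound comparison called 1 lower and 0 higher (median -0.04), and the combined comparison 2 higher and 3 lower (median -0.50). Over all genes the shares called were 2.61%, 9.49% and 29.9%, in the same order. PBS 2 held the highest of the 10 values for 16 of these 22 genes and for 4 of 10 AP-1 members, against 4.91% of all tested genes. It exceeded every other PBS library more than 2-fold for 7 of 22 (31.8%) and for 4 of 10 (40%), against 0.865% of all genes. Egr1, the zinc finger factor induced by ERK, stood at 401 CPM in PBS 2 against a median of 61.8 CPM in the other 3 PBS libraries, and the nuclear receptor gene Nr4a1 at 177 against 36.9 CPM. PBS 1 was the low end of the group, with Egr1 at 14.8 CPM beside Fos at 21 CPM.

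Gadd45b, a stress gene of the same list, ranged over 61.5 to 77.1 CPM in PBS libraries, 45.5 to 61.0 CPM in HDM libraries and 29.4 to 36.6 CPM in SF-3-030+HDM libraries. In the combined comparison it fell by 0.99 ± 0.17 on the log2 scale (edgeR adjusted p = 0.00200). Its fall of 0.67 ± 0.18 against HDM (edgeR adjusted p = 0.0411) was the 1 call of the list in the compound comparison, and it was lost in limma-voom (0.0585) and without PBS 4, HDM 2, HDM 3 or any SF-3-030+HDM library (0.0513 to 0.164). Egr2 stood at 3.93, 16.6, 4.97 and 4.22 CPM in PBS 1 to 4, at 11.8 to 16.4 CPM in HDM and at 23.1 to 26.7 CPM in SF-3-030+HDM. It rose by 1.77 ± 0.45 in the combined comparison (edgeR adjusted p = 0.0146), a call lost without SF-3-030+HDM 3 (0.0505) and, at a log2 difference of 1.20, without the 3 receptor-rich libraries (0.0692). The other calls of the list in the combined comparison were near the threshold: Ctgf higher, and Ier2 and Nr4a1 lower, at edgeR adjusted p of 0.0449, 0.0482 and 0.0484. The Ctgf call was lost without any 1 library except PBS 2 (0.0569 to 0.141). The Ier2 call was lost without PBS 2, PBS 4, HDM 2 or any SF-3-030+HDM library (0.0537 to 0.140), and the Nr4a1 call without PBS 2 or any HDM or SF-3-030+HDM library (0.0586 to 0.154).

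**Figure D5:**
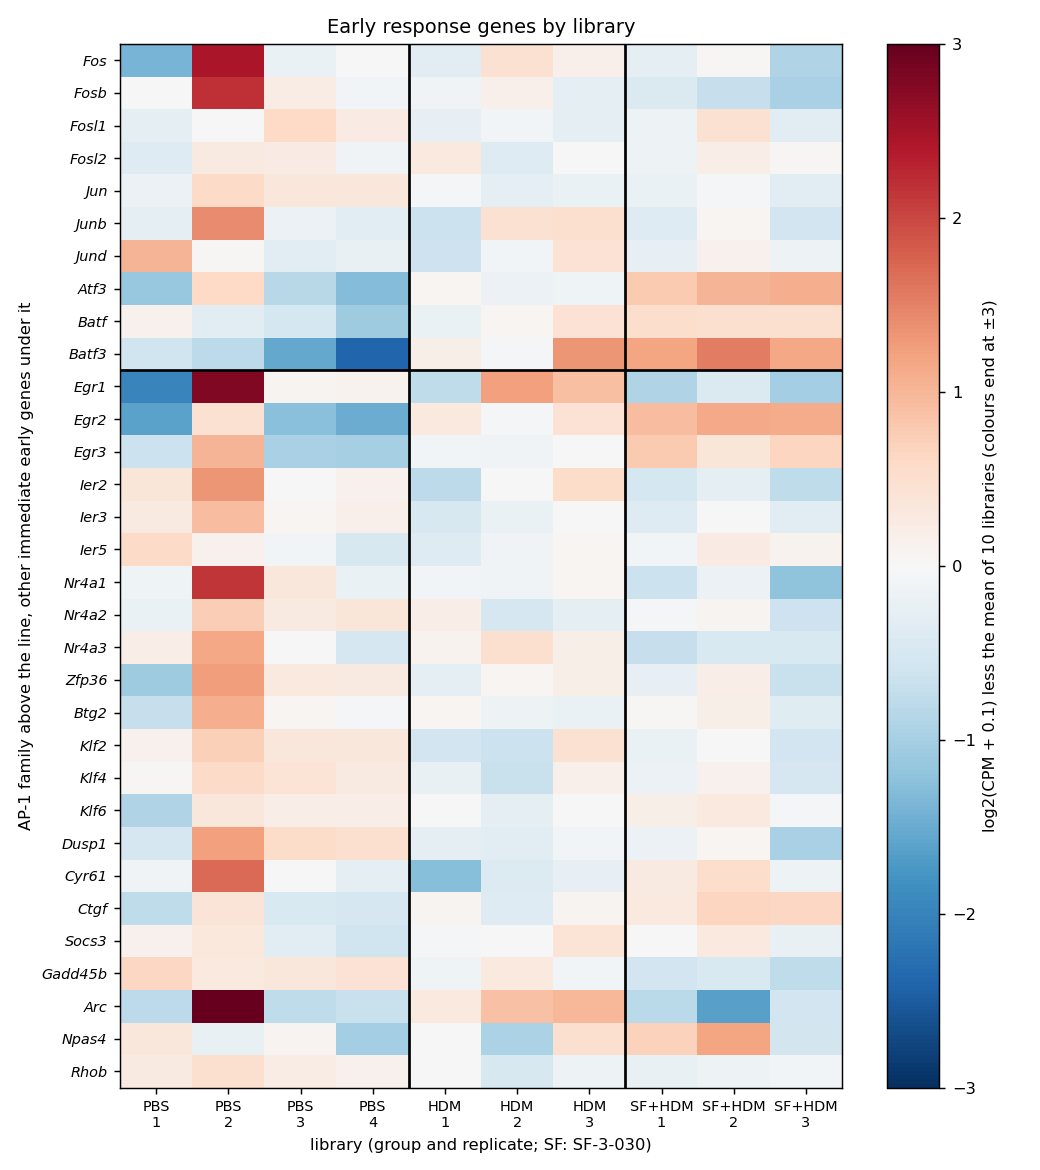
Log2(CPM + 0.1) of the 10 AP-1 members and 22 other immediate early genes in each library, less the gene's mean over the 10 libraries (red higher, blue lower, colours end at 3 either way). The PBS 2 column is red for Fos, Fosb, Junb and Egr1, and the SF-3-030+HDM columns are red for Atf3, Batf, Batf3 and Egr2.

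By profile over the 10 libraries, the gene nearest to Fos was Zfp36, an RNA decay factor, at a root mean square difference of 0.46 log2 units, followed by Egr1 (0.50) and Nr4a1 (0.52). Nr4a1 was also nearest to Fosb (0.24). Egr2 was nearest to Atf3 (0.30), ahead of the histamine receptor gene Hrh2 (0.31) and the prostaglandin receptor gene Ptger4 (0.32). Ier2 was the third nearest to Junb (0.33), after Bdkrb1 (0.27) and Ido1 (0.33). Batf lay nearest to Rhof (0.12), Batf3 to AI662270 (0.28), Jun to Pfkm (0.11), Jund to Sf3b5 (0.08), Fosl1 to Grasp (0.15) and Fosl2 to Gpr161 (0.10). Candidates were the genes of at least 1 CPM on average outside the family, and profiles were centred on each gene's mean of log2(CPM + 0.1). Flat genes lie near many others, so the distances of Fosl1, Fosl2 and Jun describe little variation.

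Textbook AP-1 targets moved in both directions. Of 26 tested, 3 were called higher and 0 lower in the allergen comparison (median 0.02 on the log2 scale). The compound comparison called 5 higher and 2 lower (median 0.22), and the combined comparison 10 higher and 3 lower (median 0.14). The shares of all genes called were 2.61%, 9.49% and 29.9%, in the same order. Mmp12, the macrophage elastase, stood at 3.14, 10.4, 9.08 and 16.7 CPM in PBS 1 to 4, at 262, 189 and 345 CPM in HDM 1 to 3 and at 790.3, 852 and 939.9 CPM in SF-3-030+HDM 1 to 3. It rose by 4.76 ± 0.47 in the allergen comparison (edgeR adjusted p = 0.000566) and by 1.70 ± 0.46 in the compound comparison (edgeR adjusted p = 0.0427). The latter call was lost without any 1 library of either of its groups (edgeR adjusted p of 0.0735 to 0.128) and with upper-quartile scaling (0.0561).

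The collagenase Mmp13 and the stromelysin Mmp3 moved in opposite directions, and both carry the AP-1 element near the start site. Their promoters are shown for that reason, from the same RefSeq build, with TGANTCA in capitals.
Mmp13, chr9:7272264-7272513, plus strand: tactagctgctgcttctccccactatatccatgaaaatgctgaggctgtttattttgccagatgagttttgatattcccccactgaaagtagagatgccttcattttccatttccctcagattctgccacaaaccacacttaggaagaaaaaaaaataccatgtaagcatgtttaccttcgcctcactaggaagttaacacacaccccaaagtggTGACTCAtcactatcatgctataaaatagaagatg
Mmp3, chr9:7445572-7445821, plus strand: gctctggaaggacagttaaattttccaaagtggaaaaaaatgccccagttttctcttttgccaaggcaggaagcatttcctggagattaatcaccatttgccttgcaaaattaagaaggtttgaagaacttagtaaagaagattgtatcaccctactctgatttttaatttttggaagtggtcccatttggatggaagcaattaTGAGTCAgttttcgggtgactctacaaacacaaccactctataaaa
Mmp13 stood at 0.855 CPM or less in PBS, at 4.68, 2.38 and 6.38 CPM in HDM 1 to 3 and at 18.1, 13.3 and 18.8 CPM in SF-3-030+HDM 1 to 3. It rose by 3.46 ± 0.52 in the allergen comparison (edgeR adjusted p = 0.00498) and by 1.91 ± 0.51 in the compound comparison (edgeR adjusted p = 0.0410), and the latter call was lost without any 1 library of either of its groups (0.0560 to 0.124) and with upper-quartile scaling (0.0630). Mmp3 stood at 18.4, 22.1, 28.8 and 30.0 CPM in PBS 1 to 4, at 18.4, 17.6 and 14.3 CPM in HDM 1 to 3 and at 6.63, 8.90 and 9.70 CPM in SF-3-030+HDM 1 to 3. It fell by 1.54 ± 0.26 in the combined comparison (edgeR adjusted p = 0.00168). Its fall of 1.01 ± 0.27 against HDM (edgeR adjusted p = 0.0399) was lost without any 1 library of either group (edgeR adjusted p of 0.0542 to 0.154). Among 19 target promoters that could be matched, 6 held TGANTCA on either strand, those of Mmp3, Mmp10, Mmp13, Plaur, Il6 and Lif.

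Other targets that rose include Plau, the urokinase gene, at 11.5 to 13.1 CPM in HDM and 24.8 to 30.2 CPM in SF-3-030+HDM. It rose by 1.14 ± 0.17 against HDM (edgeR adjusted p = 0.00250). Spp1, which encodes osteopontin, ranged over 63.8 to 96.0 CPM in PBS libraries, 134 to 174 CPM in HDM libraries and 282 to 400.2 CPM in SF-3-030+HDM libraries. It rose by 1.11 ± 0.20 against HDM (edgeR adjusted p = 0.00705). Without the 3 libraries with Y-linked transcripts, which leaves 1 HDM library, the Plau and Spp1 calls were lost, at edgeR adjusted p of 0.105 and 0.147, as were those of Bach2, Flt3, Il4, Gata3, Mef2c, Gadd45b, Mmp3, Mmp12 and Mmp13 in the same comparison (0.128 to 0.523). The neutrophil chemokine gene Cxcl1 stood at 1.16 to 3.19 CPM in HDM and 6.90 to 9.76 CPM in SF-3-030+HDM, a rise of 2.15 ± 0.50 (edgeR adjusted p = 0.0266), and neutrophil markers summed to 74.1 to 139 CPM in HDM and 249 to 299 CPM in SF-3-030+HDM. The Cxcl1 call was lost without HDM 1, HDM 2 or any SF-3-030+HDM library (edgeR adjusted p of 0.0599 to 0.0916). The part of neutrophil number in it was not tested.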

How the data were processed

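Per the labels' protocols, total RNA of whole lung was enriched for mRNA and sequenced on an Illumina HiSeq. The submitters' processing notes name STAR 2.5.2b, Trimmomatic 0.36 and GRCm38. A counting tool, annotation or strand is not given in the sources used here. The deposited table holds expected counts, per the file headers, with blanks read as 0, and log2 values normalised by the authors, which were not used.

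Expected counts were rounded and tested in R 4.3.3 with edgeR 4.0.16 (filterByExpr, TMM, quasi-likelihood) in 1 model of the 10 libraries with a term per group, 3 contrasts and Benjamini-Hochberg adjustment. SE was taken as the size of the log2 fold change divided by the root of the F statistic. CPM used deposited totals, and levels per length used merged exons of GENCODE M21. Alternatives were scaling by upper quartile or RLE, DESeq2 1.42.0, voom in limma 3.58.1, other filters, fits of 2 groups, a replicate block, a threshold of 0.01, leaving out each library and, chosen after seeing the data, leaving out 3 libraries with Y-linked transcripts or the 3 with most olfactory and vomeronasal receptor reads. The test was also run on simulated counts, with changes placed only in genes of higher count. Those counts held no outlying library and no sex or strain difference, so they do not check the calls under such differences. Deviations from the group means correlated at -0.63 to 0.22 across genes between samples of equal replicate number. The lowest values were those of PBS 3 with HDM 3 (-0.63) and PBS 1 with HDM 1 (-0.51). The main model held no pairing.

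The members and lists were chosen with earlier results of these data known. Named genes were all members, up to 4 genes of each list with the smallest p per comparison, and the 3 genes nearest each member by profile, except that some genes counted in the lists are not reported here by name. Genes named outside that rule (Egr1, Nr4a1, Clec9a in the compound comparison, the library check genes and some comparisons of Xcr1, Mmp3, Mmp12 and Mmp13) were chosen after their values were seen. Lists were related bZIP factors, upstream kinases and factors, other immediate early genes, textbook AP-1 targets, the lymphocyte programme of Batf, cDC1 genes and cell type markers.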

Additional observations from a re-analysis of the deposited data

Results flagged for a closer look

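Among the members, 4 had a PBS library whose distance from the rest of its group passed Dixon's 95% limit for 4 samples, and in each case it was PBS 2. Fos stood at 299 CPM there, Fosb at 20.5 CPM, Junb at 405 CPM and Atf3 at 27.5 CPM. The gap to the next PBS library took up 0.876, 0.941, 0.950 and 0.857 of the group's whole range, in the same order. Chance alone passes this limit in about 1 of 20 groups, and these 4 genes share 1 library and are not independent. PBS 2 was also 1 of the 3 libraries with Y-linked transcripts. What sets it apart was not tested.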

How the results depend on the processing

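The count of called members was 1 in the allergen comparison and became 0 with upper-quartile scaling, with only the 2 groups compared, under a threshold of 0.01, without the 3 libraries with Y-linked transcripts and without the 3 with most olfactory and vomeronasal receptor reads; leaving out 1 library gave 0 to 2. In the compound comparison the count of 0 became 1 with only those 2 groups (Atf3) and 1 without the 3 libraries with most olfactory and vomeronasal receptor reads (Batf3, edgeR adjusted p = 0.0201); leaving out 1 library gave 0 to 1. In the combined comparison the count of 4 became 1 at the threshold of 0.01 (Batf3), 3 in voom, with only the 2 groups and without the Y-linked libraries (Fosb lost in each), and 5 with DESeq2 and 1 CPM in 3 libraries (Jun added in each). It stayed 4 with upper-quartile scaling, with Jun in place of Batf, and was 5 without the receptor-rich libraries, with Fos and Jun added and Atf3 lost; leaving out 1 library gave 2 to 5. With the replicate block, which shares only a number between samples, the counts were 0, 0 and 1 (Batf3). By longest transcript the PBS level of Fosl2 was 10.2 and that of Batf 8.83 CPM per kb. Batf then stood above Atf3 (6.69), and Fosb (2.26) above Batf3 (2.03 CPM per kb). Both pairs had the opposite order by merged exons. The log2 fold change of Fosl2, near 0 in the main fit, changed sign under several alternatives. In the allergen comparison these were RLE (0.0091), DESeq2 (0.0090), voom (0.022), no filter (0.027), 1 CPM in 3 libraries (0.022), 2 groups (0.11) and without Y-linked libraries (0.35). In the compound comparison they were RLE, upper quartile, DESeq2, 1 CPM, 2 groups, the block and both sets left out (-0.022, -0.13, -0.022, -0.070, -0.035, -0.0024, -0.21 and -0.010). In the combined comparison they were RLE, upper quartile, DESeq2, 1 CPM, 2 groups, the block and without the receptor-rich libraries (-0.012, -0.15, -0.013, -0.048, -0.021, -0.0027 and -0.26). Without the Y-linked libraries, Fos was 0.056, 0.042 and 0.097 in the allergen comparison, the compound comparison and the combined comparison, Junb 0.42 and 0.035 in the latter pair, and Jund 0.62 in the compound comparison. Without the receptor-rich libraries, Atf3 was -0.082 in the allergen comparison, and Jund 0.16 and 0.020 in the comparisons with SF-3-030+HDM. Leaving out 1 library changed the sign of 13 uncalled differences. In the allergen comparison these were Fos (-1.12 to 0.59), Fosl2 (-0.16 to 0.10), Junb (-0.39 to 0.53) and Jund (-0.42 to 0.15). In the compound comparison they were Fosl1 (-0.045 to 0.35), Fosl2 (-0.073 to 0.19), Jun (-0.062 to 0.031) and Jund (-0.30 to 0.19). In the combined comparison they were Fos (-1.67 to 0.070), Fosl1 (-0.40 to 0.067), Fosl2 (-0.15 to 0.14), Junb (-0.86 to 0.022) and Jund (-0.38 to 0.047). The causes were not tested. Upper-quartile scaling moved the median log2 fold change over all genes by -0.15 and -0.20 in the comparisons of SF-3-030+HDM with HDM and PBS, and no filter by -0.21 and -0.28. Groups hold 3 or 4 libraries, sex and strain markers differ from the labels, and strain, supply and compound cannot be told apart in SF-3-030+HDM.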

Other observations

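Genes of other tissues and cell types also moved between the groups. In the combined comparison all 7 cardiac muscle markers, 5 of 6 adipose markers, 3 of 5 skeletal muscle markers and all 5 erythroid markers were called lower by edgeR, with list medians of -2.50, -3.24, -2.53 and -1.31 on the log2 scale. In the allergen comparison 1 cardiac marker and 1 skeletal marker were called lower, and 0 adipose or erythroid markers. The compound comparison called 3 of 7 cardiac, 5 of 6 adipose, 2 of 5 skeletal and 0 of 5 erythroid markers lower. The list medians there were -1.35, -2.40, -1.35 and -0.64 on the log2 scale, in the same order. Over all genes 18.1% were called lower in the combined comparison, 0.294% in the allergen comparison and 6.06% in the compound comparison. Lung epithelial markers had 6 of 9 called lower in the combined comparison, 1 of 9 in the allergen comparison and 3 of 9 in the compound comparison. Of 8 endothelial markers 1 was called lower in the combined comparison and 0 in the allergen comparison. Smooth muscle, thymocyte and squamous epithelium markers had 1 of 6, 0 of 3 and 1 of 5 tested genes called lower in the combined comparison, with Krt5 of the squamous list higher in each of the 3 comparisons.

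Jund was highest in PBS 1, at 996 CPM. PBS 1 held the highest value of the 10 libraries for 35.5% of all tested genes and the most olfactory and vomeronasal receptor reads. The genes nearest to Jund by profile were Sf3b5, Dpm3 and Bola1, at 0.08, 0.11 and 0.11 log2 units. Nqo1, an oxidative stress enzyme, was the second nearest to Fosb, at 0.33. The part of PBS 1 in these profiles was not tested.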
